A study of Mus musculus with 6 samples.

Results

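The genes described here are 9 genes of epithelial cells of the liver: the keratins Krt8, Krt18, Krt23, Krt7 and Krt19, the surface proteins Epcam and Cd24a, the transcription factor Sox9 and the water channel Aqp1. They were taken as all probe sets whose platform annotation gives exactly 1 of these symbols, which came to 16 of the 45037 probe sets that are not controls. The 6 Affymetrix arrays, of 1 colour each, held liver RNA of C57BL/6 mice, 3 after a ketogenic diet (Bio-Serv F3666), in which fat replaces nearly all carbohydrate, and 3 after chow (Labdiet 5008), a standard grain-based diet. All mice were 8 weeks old at the start, ate their diet for 6 weeks, and were killed in the morning with food freely available. The labels name no genetic change and no sex. The design text speaks of RNA from 2 to 3 animals per diet and does not say whether an array held 1 mouse or a pool, so the p-values rest on the spread among these arrays, and part of that spread may be technical.

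Keratins are the intermediate filament proteins of epithelial cells and assemble as pairs of a type I and a type II chain. Hepatocytes carry the pair of Krt8 (type II) and Krt18 (type I), while cholangiocytes, the cells that line the bile ducts, also carry Krt7 (type II) and Krt19 (type I). Epcam, Sox9 and Cd24a mark bile duct cells and bipotential progenitor cells, which multiply in injured liver in what is called the ductular reaction. In whole liver RNA, a different number of cells of a type and a different amount of transcript per cell cannot be told apart.

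Values are the signal intensities deposited per probe set, and a change is the log2 signal on ketogenic arrays minus that on chow arrays, given with limma's moderated standard error (SE) and p-values adjusted over all 22515 probe sets that passed a filter on low signal. The background, set by bacterial control probe sets, was a signal of 10.7 on average. Array level overlapped between the diets, with a 2% trimmed mean signal of 45.6 to 60.7 on ketogenic and 39.6 to 53.1 on chow arrays (two-sided exact permutation p = 0.3). The spiked hybridization controls did not overlap (1148 to 1248 on ketogenic and 1457 to 1492 on chow arrays, exact p = 0.1, the smallest that 3 against 3 arrays allow), nor did the 3' to 5' ratio of actin, a sign of RNA integrity (1.49 to 1.63 on ketogenic and 2.00 to 2.20 on chow arrays, exact p = 0.1). The same ratio of Gapdh did overlap (0.775 to 0.812 on ketogenic and 0.761 to 0.972 on chow arrays, exact p = 0.9). Scaling to the hybridization controls is among the alternatives given below, while the part of the actin ratio in the results was not tested. The arrays carried hepatocyte RNA, with albumin (Alb) at a mean signal of 7948 on ketogenic and 8023 on chow arrays.

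On the ketogenic diet Krt8, Krt23 and Cd24a rose, Krt8 2.47-fold, Krt23 at least 5.25-fold and Cd24a 8.09-fold on its brightest probe set. On that probe set of Cd24a, chow arrays 2 and 3 lay near the background. None of the 9 genes fell. Krt18 and Aqp1 were higher on every ketogenic array than on any chow array, with changes of 0.81 and 0.98 that did not pass the test, and Krt19 and Sox9 overlapped between the diets. The cholangiocyte keratins that define bile duct cells were dim. Krt7 did not overlap between the diets, but lay under the background on every chow array and above it on 2 of 3 ketogenic arrays. Krt19 was above the background of its array on 2 of 3 ketogenic and 1 of 3 chow arrays, with a highest signal of 25.8. Epcam was split: probe set 1416579_a_at, under the filter, was above background on 3 ketogenic and 0 chow arrays, while its other probe set overlapped between the diets. The brighter members, Krt8, Krt18, Cd24a and Aqp1, are also known from other cells of the liver.

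Of the 16 probe sets, 13 passed the filter, and Krt7 had none that did. Of these 13, 5 were called higher and 0 lower, namely the 3 of Krt8, that of Krt23 and 1 of the 3 of Cd24a. Over all kept probe sets 4.08% were called higher and 0.564% lower, 4.64% in either direction. The members' count was 2, 2 and 1 without ketogenic array 1, 2 and 3, and 2 without chow array 2. This count is a description only, since 3 of the 13 (that of Krt23 and 2 of Cd24a) lay under the filter on chow and passed through their ketogenic signal. The diets did not overlap, with ketogenic higher, for 11 of the 16 probe sets, against 14.2% of all probe sets that are not controls, and for 0 with ketogenic lower, against 5.38%. Among kept probe sets the counts were 9 of 13 and 0 of 13, against 21.6% and 5.06%, and the change was above 0 for 13 of 13, against 68.1%. The median change of the 8 genes, each by its brightest kept probe set, was 1.02, beside 0.23 over the 11866 genes with a kept probe set. These counts and this median are descriptions too, since the members were chosen with earlier results of these data known. Probe sets of 1 gene, such as the 3 of Krt8, are also not independent.

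**Figure D1:**
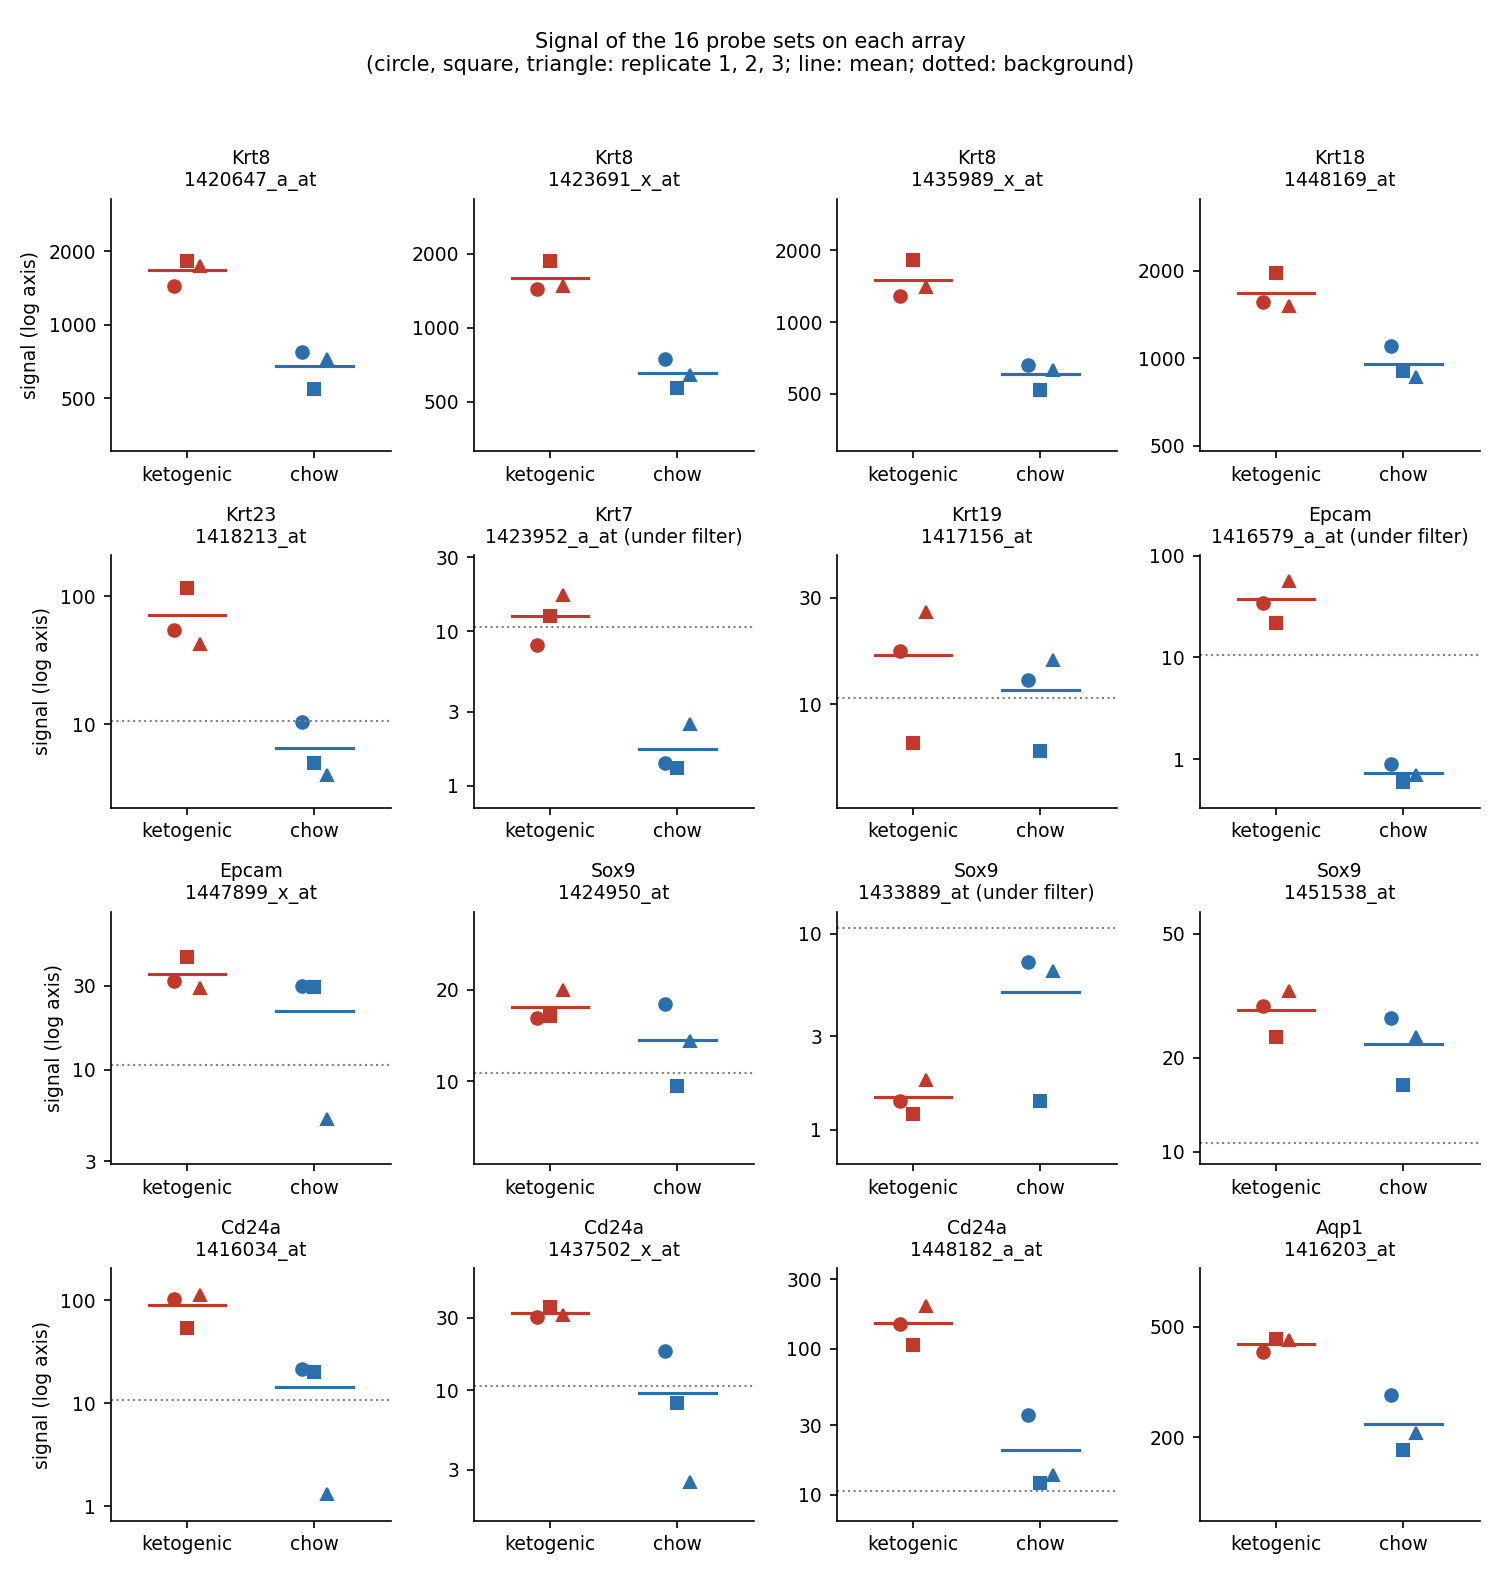
Signal of each of the 16 probe sets on the 3 ketogenic (red, left) and 3 chow (blue, right) arrays, on a log axis that differs between panels; the line is the mean and the dotted line the background signal of 10.7. All ketogenic points of Krt8, Krt18, Krt23, Krt7, Cd24a, Aqp1 and probe set 1416579_a_at of Epcam lie above all chow points. Those of Krt19, Sox9 and the other probe set of Epcam overlap.

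Krt8 and Krt18 are partners in 1 filament and neighbours in the genome: in the RefSeq table of assembly GRCm38.p6, Krt18 is the protein-coding gene next to Krt8 on chromosome 15. Krt18 is known as the type I keratin gene that lies beside the type II genes. The promoter windows of RefSeq (GRCm38.p6), 250 bases before to 50 bases after the annotated start, are shown for this pair and for Krt23, the keratin with the highest fold change of those that passed the filter, because these are the keratins on which the comparison turns. Capitals mark matches to 5 motifs searched on both strands: TATAAA (the TATA box), TGANTCA (AP-1), GGAATG (TEAD), ACAATG (SOX) and GGGCGG (SP1). The windows are chr15:102004293-102004592 (minus strand) for Krt8, chr15:102027966-102028265 (plus strand) for Krt18 and chr11:99493071-99493370 (minus strand) for Krt23.
Krt8: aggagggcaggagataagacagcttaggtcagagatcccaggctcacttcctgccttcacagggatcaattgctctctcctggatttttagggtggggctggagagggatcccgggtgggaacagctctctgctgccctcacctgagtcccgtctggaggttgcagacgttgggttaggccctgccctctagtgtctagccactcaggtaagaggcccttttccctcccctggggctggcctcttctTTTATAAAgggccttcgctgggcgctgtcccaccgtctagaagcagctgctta
Krt18: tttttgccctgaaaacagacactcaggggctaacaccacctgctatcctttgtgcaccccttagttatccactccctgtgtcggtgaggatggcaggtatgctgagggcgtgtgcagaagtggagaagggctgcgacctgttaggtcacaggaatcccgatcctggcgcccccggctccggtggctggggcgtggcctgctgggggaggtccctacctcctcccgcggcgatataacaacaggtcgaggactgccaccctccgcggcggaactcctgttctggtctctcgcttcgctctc
Krt23: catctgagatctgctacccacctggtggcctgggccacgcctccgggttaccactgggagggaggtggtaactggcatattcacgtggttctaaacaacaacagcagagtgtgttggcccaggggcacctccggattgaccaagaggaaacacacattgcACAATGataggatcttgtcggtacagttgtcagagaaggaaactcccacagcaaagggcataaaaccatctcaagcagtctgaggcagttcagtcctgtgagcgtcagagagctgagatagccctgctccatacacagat
The run of capitals in Krt8 holds TATAAA on both strands, overlapping, at the annotated start. A TATAAA match occurs in 13.6% of the 32851 promoter windows of the table. Krt23 held 1 ACAATG, which 12.6% of the windows hold, and Krt18 held none of the 5. The windows of Krt7, Epcam and Aqp1 held GGGCGG and none of the other 4 motifs, and 35.7% of all windows hold GGGCGG. No AP-1 or TEAD match was found in the 6 windows available. A match is a description of letters and not a binding site.

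Krt8, the type II keratin of simple epithelia, had signals of 1446, 1826 and 1744 on ketogenic arrays 1, 2 and 3, against 770.3, 547 and 723 on chow arrays 1, 2 and 3 (probe set 1420647_a_at). Every ketogenic array was above every chow array, and the gap was wider than the spread within a diet. The means were 1672 ± 200.4 on the ketogenic diet and 680.1 ± 118 on chow (SD, n = 3 each), a log2 change of 1.31 ± 0.26 (SE) with limma adjusted p = 0.0271. This change was larger than that of 94.7% of the kept probe sets. The other 2 probe sets of Krt8 had changes of 1.29 and 1.31 (adjusted p = 0.0267 and 0.0274). The names of all 3 mark that they can bind several transcripts. The call was lost without ketogenic array 1, 2 or 3 or chow array 2 (adjusted p = 0.0715, 0.0873, 0.0866 and 0.0852), with changes of 1.16 to 1.41. With all probe sets tested and no filter, adjusted p was 0.117.

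Krt18, the type I partner of Krt8, had signals of 1557, 1969 and 1516 on the ketogenic arrays, against 1104, 906 and 862 on the chow arrays. The diets did not overlap here either, but the step was smaller. The means were 1680 ± 250.5 on the ketogenic diet and 957 ± 129 on chow (SD, n = 3 each), a log2 change of 0.81 ± 0.25 (SE), with a 95% interval of 0.24 to 1.38 and limma adjusted p = 0.114. It passed the threshold under 5 of 18 alternatives, among them a common array median (adjusted p = 0.0457), quantile normalization (0.0442) and scaling to the hybridization controls (0.0222). The smallest absolute change called in the whole table was 0.97.

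The log2 ratio of the signal of Krt8 to that of Krt18, which no factor applied to a whole array can alter, was -0.11, -0.11 and 0.20 on the ketogenic arrays and -0.52, -0.73 and -0.25 on the chow arrays. Only the difference between diets can be read from it, since the probes of both genes bind differently. The ratio was 0.50 higher on the ketogenic diet, and the ranges did not overlap.

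Krt23, a type I keratin that is scarce in healthy liver and is known as a marker of the ductular reaction and of liver injury, had signals of 54.9, 116 and 42.2 on the ketogenic arrays, against 10.4, 5 and 4 on the chow arrays. All 3 chow arrays were at or under their background and all 3 ketogenic arrays above it. The means were 71.2 ± 39.7 on the ketogenic diet and 6.47 ± 3.44 on chow (SD, n = 3 each), and the rise was at least 5.25-fold with chow signals raised to the background of their arrays. The fitted log2 change was 3.45 ± 0.47 (SE), with limma adjusted p = 0.00758, and rests on chow signals under the background. The probe set passed the filter only through its ketogenic signal, and without a filter the call was lost (adjusted p = 0.081). Among the ketogenic arrays, array 2 stood above the other 2.

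Cd24a encodes a small surface protein, anchored by a lipid, that is found on liver progenitor and bile duct cells and also on B cells, neutrophils and other immature blood cells. Its brightest probe set (1448182_a_at) had signals of 147, 106 and 197 on the ketogenic arrays, against 35.4, 12 and 13.7 on the chow arrays. The lowest ketogenic signal was well above the highest chow signal. Chow arrays 2 and 3 lay near their backgrounds of 11.4 and 12.8, so the size of the change rests partly on signals near background. The means were 150.2 ± 45.6 on the ketogenic diet and 20.4 ± 13.05 on chow (SD, n = 3 each), a log2 change of 3.02 ± 0.44 (SE) with limma adjusted p = 0.00992. The call was lost without ketogenic array 3 (log2 change 2.80, adjusted p = 0.0526) and without a filter (0.0903).

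The other 2 probe sets of Cd24a were also higher on the ketogenic diet but did not pass the test. Probe set 1416034_at had 103, 54 and 113 on the ketogenic arrays, against 21.5, 20.3 and 1.3 on the chow arrays, with a log2 change of 3.37 ± 0.96 (SE) and adjusted p = 0.0912. Its spread came from chow array 3, and without that array the change was 2.04 with adjusted p = 0.0298. Probe set 1437502_x_at had 30.3, 35.2 and 31.3 on the ketogenic arrays, against 18.2, 8.2 and 2.5 on the chow arrays, with a log2 change of 2.16 ± 0.61 (SE) and adjusted p = 0.0885 (0.0246 without chow array 1, log2 change 2.83). None of the 3 probe sets overlapped between the diets. The names of 1448182_a_at and 1437502_x_at mark that they can bind several transcripts.

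**Figure D2:**
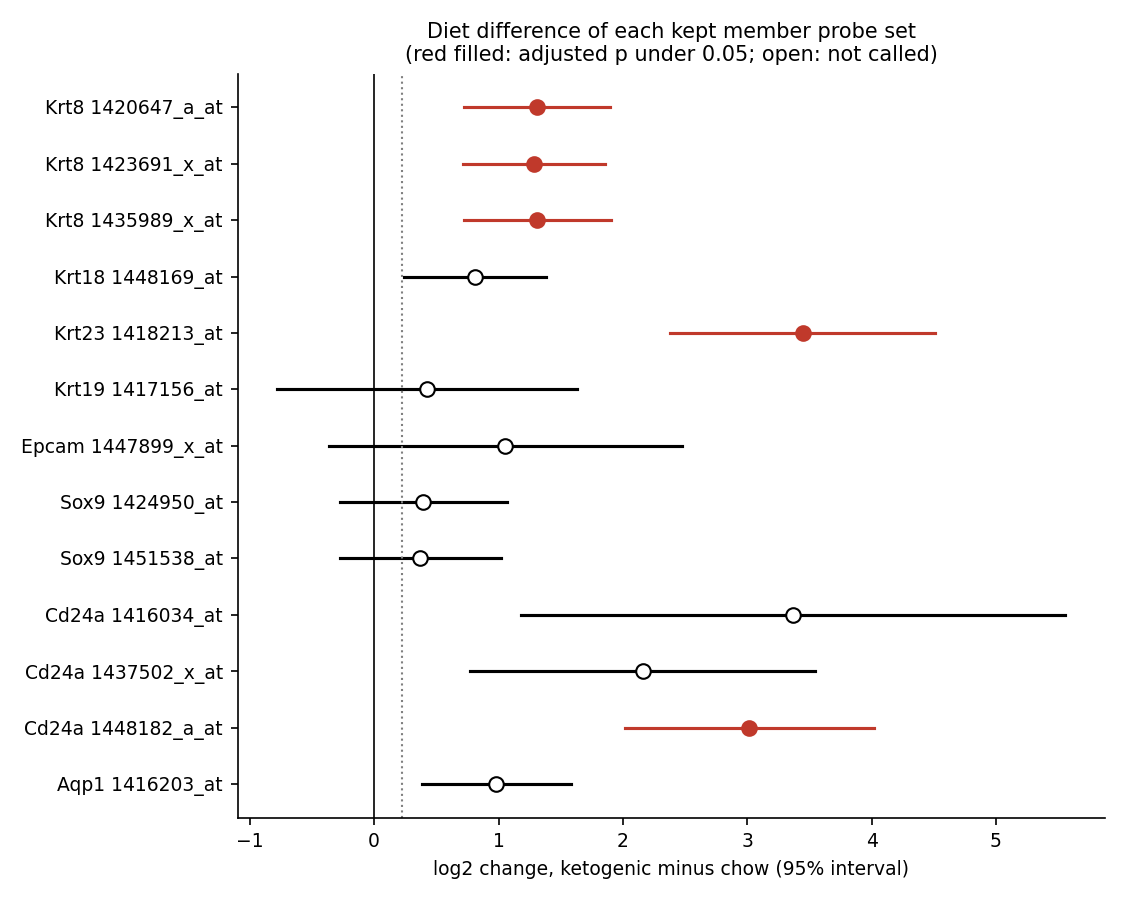
Log2 change, ketogenic minus chow, of each of the 13 kept probe sets with its 95% interval; red filled points have an adjusted p under 0.05, open points do not, and the dotted line is the median of all kept probe sets. The 3 probe sets of Krt8 lie together at 1.29 to 1.31, and the intervals of Krt19, Sox9 and Epcam include 0.

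Epcam, an adhesion protein of bile duct and progenitor cells that adult mouse hepatocytes lack, gave different pictures on its probe sets. Probe set 1416579_a_at had signals of 34.5, 21.7 and 56.1 on the ketogenic arrays, against 0.9, 0.6 and 0.7 on the chow arrays. It was above background on all 3 ketogenic arrays and under it on all 3 chow arrays, and its ketogenic mean was at least 2.82-fold the chow background. Its mean over all arrays lay under the filter, so the main fit did not test it. A fit without a filter gave limma adjusted p = 0.0356 over all 45037 probe sets. The 3 chow signals were all raised to the floor of 1.1 in that fit, so its p rests on chow values without spread, and the fold above is the one to read. In that fit it was the 1 probe set of the 16 that passed, where 0.311% of all probe sets were called higher. It was also kept and called with log2(signal + 16), which uses no floor (limma adjusted p = 7.09e-05). Adding 16 to chow signals of 0.6 to 0.9 likewise leaves them almost without spread, so that p has the same limit.

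The names of both probe sets of Epcam mark that they can bind several transcripts. The other one, 1447899_x_at, had 32, 44 and 29 on the ketogenic arrays, against 29.8, 29.5 and 5.2 on the chow arrays. The diets overlapped, and only chow array 3 stood low. The log2 change was 1.05, with a 95% interval of -0.37 to 2.47 and limma adjusted p = 0.387, and it was past the threshold under 0 of 17 alternatives. By the rule of the brightest probe set this is the one that stands for Epcam in counts of genes.

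Krt7, the type II keratin of bile ducts, had signals of 8.1, 12.5 and 17.2 on the ketogenic arrays, against 1.4, 1.3 and 2.5 on the chow arrays. The signals did not overlap, but only 2 of the 3 ketogenic arrays and 0 of the chow arrays were above their background, so no fold is given. Without a filter it was not called (adjusted p = 0.0703). Krt19, the type I keratin of bile ducts, had 17.4, 6.7 and 25.8 on the ketogenic arrays, against 12.8, 6.2 and 15.7 on the chow arrays. The diets overlapped over most of their range. Its log2 change was 0.42, with a 95% interval of -0.78 to 1.63 and adjusted p = 0.691, and it passed under 0 of 18 alternatives.

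Sox9, the transcription factor of bile duct cells and of a class of periportal hepatocytes, did not separate the diets. Its brightest probe set (1451538_at) had 29.3, 23.3 and 32.7 on the ketogenic arrays, against 26.8, 16.4 and 23.4 on the chow arrays, with a log2 change of 0.37 and a 95% interval of -0.28 to 1.02 (adjusted p = 0.505). Probe set 1424950_at gave 0.40 (-0.27 to 1.07, adjusted p = 0.494). Both intervals hold changes of either sign, so they do not show that the diets were alike. The remaining probe set, 1433889_at, was not above background on any array (1.2 to 1.8 on ketogenic and 1.4 to 7.2 on chow arrays), so no change is given.

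Aqp1, the water channel through which bile duct cells move water into bile, is also abundant in endothelium and red blood cells. Its signals were 407, 451 and 447 on the ketogenic arrays, against 285, 180.3 and 207 on the chow arrays. The ketogenic arrays were close to each other and all above the chow arrays. The means were 435 ± 24.6 on the ketogenic diet and 224 ± 54.6 on chow (SD, n = 3 each), a log2 change of 0.98 ± 0.26 (SE), with a 95% interval of 0.38 to 1.58 and limma adjusted p = 0.0769. It passed the threshold under 4 of 18 alternatives, among them when 1 probe set stood for each gene and fewer tests were adjusted for (0.0496). Of the other aquaporins, 0 of 5 kept genes were called in either direction, with changes of -0.37 to 1.11. Aqp9, the glycerol channel of hepatocytes, averaged 1478 on the ketogenic diet and 1319 on chow (change 0.17, adjusted p = 0.746).

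Within the ketogenic arrays the genes did not follow 1 order. Krt8, Krt18 and Krt23 had their highest signal on ketogenic array 2, which was also the array with the highest overall level (trimmed mean 60.7). Krt19, the bright probe set of Cd24a and probe set 1416579_a_at of Epcam had their lowest signal on that array and their highest on ketogenic array 3, the array with the lowest level (45.6). Krt7 was highest on array 3 as well. Over the 6 arrays the log2 signals of Krt18 and Krt23 had Pearson r = 0.998, those of Krt8 and Krt18 0.945, and those of Krt19 and Krt18 0.0723. These coefficients describe 6 arrays that fall into 2 diets, so genes that differ between the diets correlate for that reason alone.

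Among the 11865 other genes with a kept probe set, the 5 whose log2 signals followed those of Krt8 most closely were Gimap8, Ahnak, Tgm2, Cpne8 and Vim, with r between 0.996 and 0.998. Vim, the intermediate filament protein of mesenchymal cells, and Tgm2, a cross-linking enzyme, are also in the list of filament partners below. Of the other members, Aqp1 ranked 155, Krt23 432, Cd24a 434, Krt18 460, Sox9 3320, Epcam 5441 and Krt19 6297 in the same order.

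Lists of related genes were set beside the members and are described by their counts and medians, against 4.74% of all genes called higher, 0.615% called lower and an all-gene median change of 0.23. These lists and the cell type lists below were also chosen with earlier results of these data known, so their counts are descriptions only. Of 14 kept genes of bile duct epithelium 0 rose and 0 fell, with a median change of 0.28 and values from -0.35 to 2.12. Cldn3, a tight junction protein and the brightest of this list, averaged 754 on the ketogenic diet and 623 on chow (change 0.28, adjusted p = 0.544). The highest values were those of St14, Prom1, Tspan8 and Bicc1, named after their values were seen, between 1.199 and 2.12, with adjusted p between 0.0675 and 0.270. Of these, St14, Prom1 and Tspan8 passed the filter only through their ketogenic signal. In limma, 0 to 4 genes of this list were called higher over the alternatives.

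Of 9 kept genes of liver progenitor and oncofetal expression 4 rose and 0 fell, with a median of 0.53, and 2 of the 4, Tnfrsf12a and Bex1, passed the filter only through their ketogenic signal. Tnfrsf12a, the receptor of the progenitor mitogen TWEAK, rose at least 13.3-fold, with all chow arrays under the background (adjusted p = 0.000186), and held under 18 of 18 alternatives. Sox4, a transcription factor of bile duct development, averaged 211 on the ketogenic diet and 34.2 on chow (log2 change 2.73 ± 0.41 (SE), adjusted p = 0.0113), a call lost without ketogenic array 3 and without a filter (up to 0.0925). Cd44, a hyaluronan receptor that leukocytes also carry, averaged 129 on the ketogenic diet and 28.9 on chow (change 2.20, adjusted p = 0.00731), a call lost only without a filter (0.0656). The remaining rise was that of Bex1, named to complete the count, at least 1.96-fold (adjusted p = 0.0337), a call lost without a filter (0.176). Over the alternatives, 1 to 4 genes of this list were called higher. The fetal genes Afp and Dlk1 did not pass the filter, with mean signals of 8.27 and 8.93 on the ketogenic diet and 6.83 and 16.1 on chow.

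In the Notch pathway, which specifies bile duct cells through Sox9, 1 of 10 kept genes rose and 0 fell, and all 10 had changes above 0 (median 0.34). The rise was that of Jag1, a Notch ligand, with means of 35.7 on the ketogenic diet and 13.3 on chow (change 1.42 ± 0.27 (SE), adjusted p = 0.0231), a call lost without ketogenic array 2 or 3 or chow array 3 or without a filter (up to 0.110). In the YAP and TEAD pathway, which also drives bile duct fate, 2 of 8 kept genes rose and 0 fell (median 1.17). Axl, a receptor tyrosine kinase that macrophages carry too, rose by 2.38 ± 0.24 (log2, SE; adjusted p = 0.00212) and held under 18 of 18 alternatives. Ajuba, a junction protein that restrains the Hippo kinases, rose by 1.42 (adjusted p = 0.0193), a call lost under 6 of 17 alternatives, namely without any 1 ketogenic array, without a filter, after quantile normalization and when arrays shared a trimmed mean (up to 0.0925).

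Other keratins gave little signal in liver. Of 16 epithelial keratins besides the members, 6 passed the filter and 0 were called in either direction, with a median change of 0.33. The brightest was Krt42, a type I keratin, with means of 184 on the ketogenic diet and 95.3 on chow (change 0.95, adjusted p = 0.0635). Krt1, Krt2, Krt12, Krt13, Krt15 and Krt20 were at or under the background on all 6 arrays. Of 13 kept filament partners and junction proteins 4 rose and 0 fell (median 0.67). Hspb1, a small heat shock protein that binds intermediate filaments, averaged 824 on the ketogenic diet and 272 on chow (change 1.59, adjusted p = 0.0138), Vim averaged 195 on the ketogenic diet and 77.9 on chow (1.32, 0.0265), and Lmna, of the nuclear lamina, 173 on the ketogenic diet and 70.9 on chow (1.29, 0.0268). The fourth was Tgm2 (1.202, 0.0308), named to complete the count. The calls of Vim, Lmna and Tgm2 were lost without any 1 ketogenic array, without chow array 2 and without a filter, those of Lmna and Tgm2 also without chow array 3, and that of Vim also with a common trimmed mean or quantile normalization (up to 0.114 for Vim, 0.112 for Lmna and 0.117 for Tgm2). That of Hspb1 was lost without ketogenic array 2 and without a filter (up to 0.081).

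**Figure D3:**
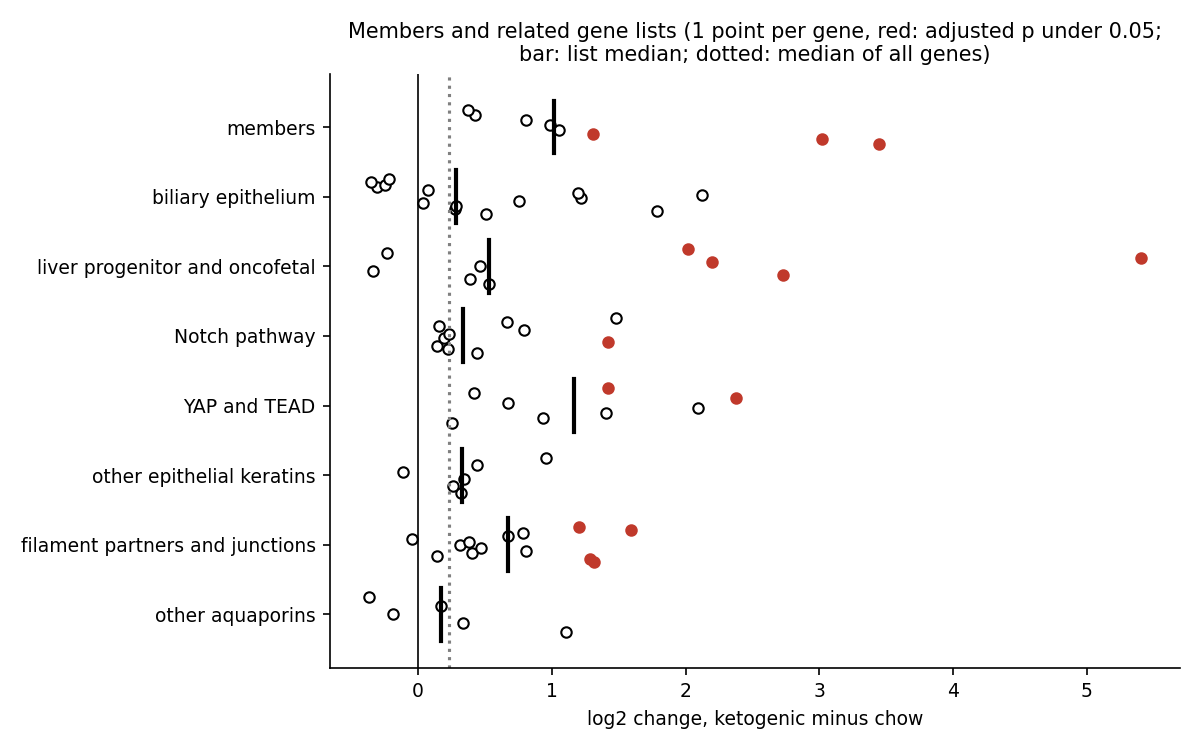
Log2 change, ketogenic minus chow, of the members and of 7 lists of related genes, 1 point per gene with a kept probe set; red points have an adjusted p under 0.05, the bar is the median of the list and the dotted line the median of all genes. The members' median of 1.02 lies right of the all-gene median of 0.23, and the bile duct list has 0 red points.

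Several members are also expressed by cells other than bile duct cells, and marker lists of those cells are given beside them. Of 10 kept macrophage markers 7 rose and 0 fell (4 to 6 with 1 array left out and 3 to 8 under the other alternatives). The summed signal of all 11 markers measured was 3612 to 5440 on ketogenic and 1052 to 1308 on chow arrays, with Cd68 at a change of 2.71 and Lyz2 at 2.68 (adjusted p = 0.00179 for both). Gpnmb, which passed the filter only through its ketogenic signal, rose at least 10.8-fold. Of 9 kept markers of stellate cells and fibroblasts 6 rose and 0 fell (3 to 5 with 1 array left out, 2 to 8 under the other scalings and 0 without a filter; summed signal of all 10 measured 3198 to 4763 on ketogenic and 1129 to 1451 on chow arrays), with Col1a1, Col3a1 and Col1a2 at 3.73, 2.96 and 2.30 (adjusted p = 0.0193, 0.00727 and 0.0138). Col1a1 passed the filter only through its ketogenic signal, and its call was lost without ketogenic array 2 or 3. Those of Col1a1 and Col1a2 were lost after quantile normalization and when arrays shared a trimmed mean, and those of all 3 without a filter (up to 0.139). Of 10 kept endothelial markers, which bear on Aqp1, Tek rose by 1.19 (adjusted p = 0.0411) and 0 fell. That call was lost without any 1 ketogenic array, without chow array 2 or 3 and without a filter (up to 0.157), and 0 to 6 endothelial genes were called higher over the alternatives. All 11 endothelial markers measured had a summed signal of 1259 to 1544 on ketogenic and 675 to 1045 on chow arrays.

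Of 5 kept neutrophil markers, which bear on Cd24a, 3 rose and 0 fell: Csf3r, S100a8 and S100a9 rose at least 2.51-fold, 2.18-fold and 2.10-fold, with all chow arrays under the background. All 3 passed the filter only through their ketogenic signal, and without any 1 ketogenic array none of them passed it, which left 0 calls. The neutrophil granule genes Mpo and Elane did not rise (changes of -0.63 and -0.87, adjusted p = 0.520 and 0.260), and the summed signal of this list was 111 to 130.6 on ketogenic and 56 to 86.9 on chow arrays. Of 5 kept B cell markers 0 were called in either direction, with overlapping sums of 67.9 to 115 on ketogenic and 68.9 to 99.3 on chow arrays. Their median change was 0.48, with 3 of 5 above 0, and Pax5, the brightest, had -0.51 (adjusted p = 0.418). Of 3 kept erythroid markers, which bear on Aqp1 and Cd24a, 0 were called, and the summed signal of all 7 measured was 247 to 291 on ketogenic and 361 to 524 on chow arrays, with Alas2 at -1.01 (adjusted p = 0.0755).

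Mesothelial cells, which cover the liver and carry the same keratins as bile ducts, had 1 kept marker of 6, Gpm6a (change 0.84, adjusted p = 0.188), while Msln and Lrrn4 were at or under the background on all arrays, and the sums of all 6 overlapped (41 to 80 on ketogenic and 34.8 to 66.2 on chow arrays). Of 3 kept pancreatic acinar markers 0 were called, with sums over all 5 measured of 127 to 177 on ketogenic and 202 to 342 on chow arrays and Cela1 at -0.95 (adjusted p = 0.0968). Of 9 kept hepatocyte markers 0 rose and 1 fell, Tat, by 2.03 on the log2 scale (adjusted p = 0.0148, a call lost without ketogenic array 3 and without a filter), and their summed signal was 41328 to 47033 on ketogenic and 50561 to 54321 on chow arrays. The part of these cell types in the changes of Krt8, Krt23 and Cd24a was not tested.

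**Figure D4:**
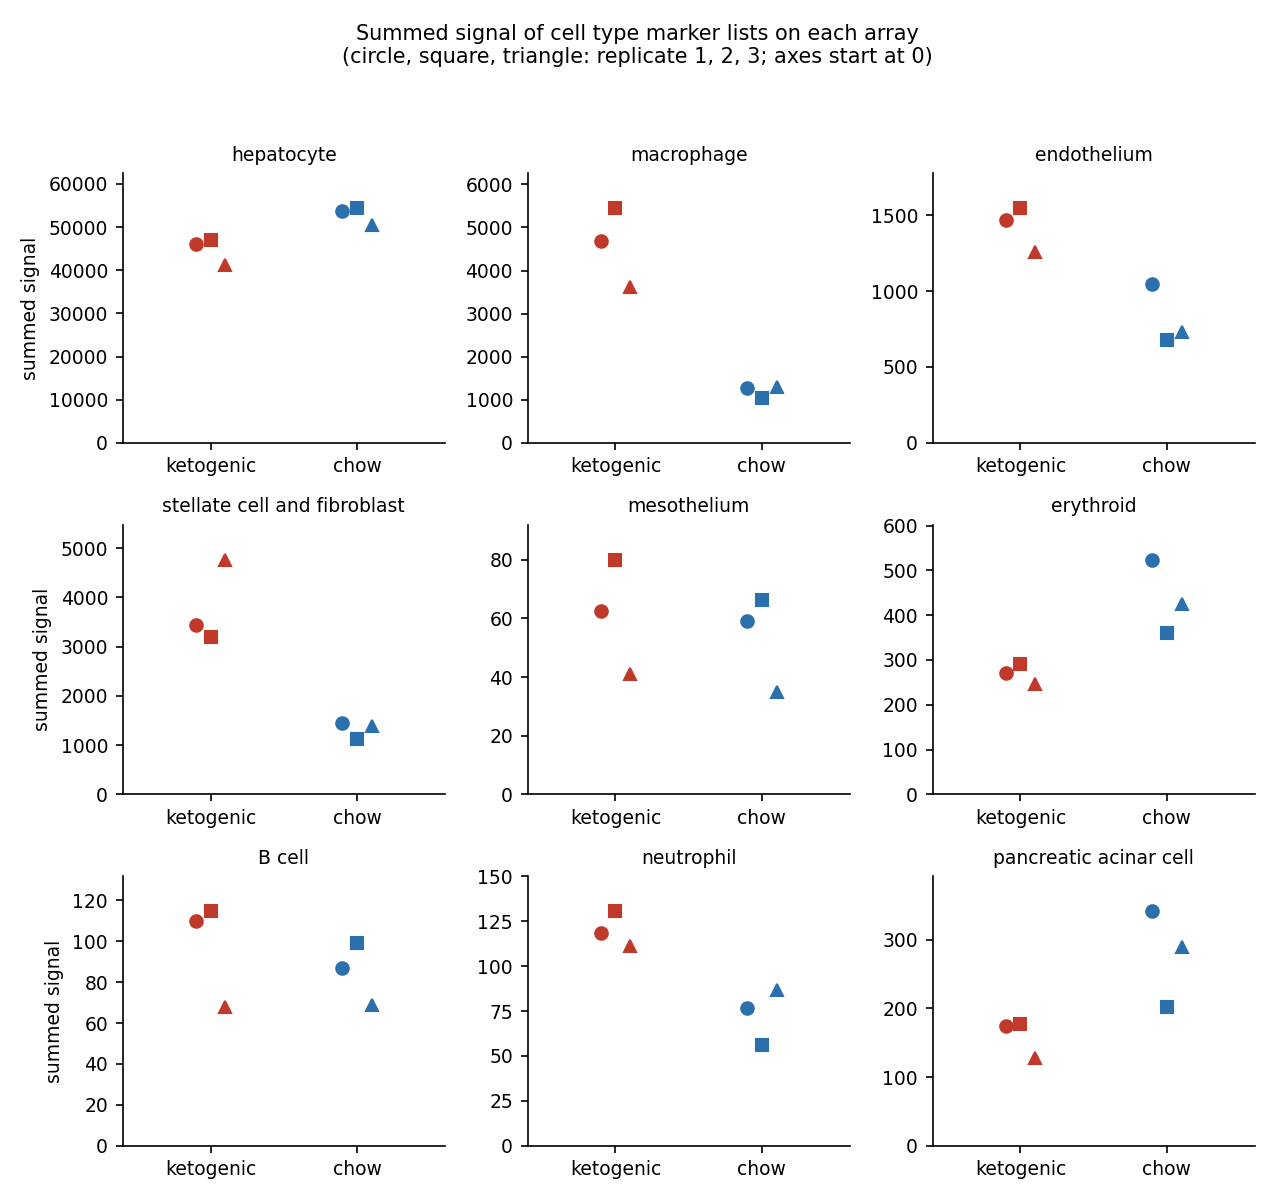
Summed signal of the markers of 9 cell types, by the brightest probe set of each gene, on the 3 ketogenic (red, left) and 3 chow (blue, right) arrays; axes start at 0. The sums of macrophage, endothelial, stellate and neutrophil markers lie higher on all ketogenic arrays, those of hepatocyte, erythroid and acinar markers lower, and those of B cell and mesothelial markers overlap.

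Over the 4 other scalings the median change of all kept probe sets was shifted by -0.234 to 0.28, and no kept probe set of the 9 genes changed sign. Quantile normalization moved the members unequally, with Krt18 at 0.80 and Sox9 at 0.13, against 0.81 and 0.37 as deposited. Krt8 ranged from 1.09 with a common trimmed mean to 1.59 with the hybridization controls, Krt23 from 3.23 to 3.73 and Cd24a from 2.80 to 3.30, and all 3 stayed past the threshold under each of the 5 scalings. Sox9 and Krt19 stayed within 0.3 of the median of all probe sets under each.

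**Figure D5:**
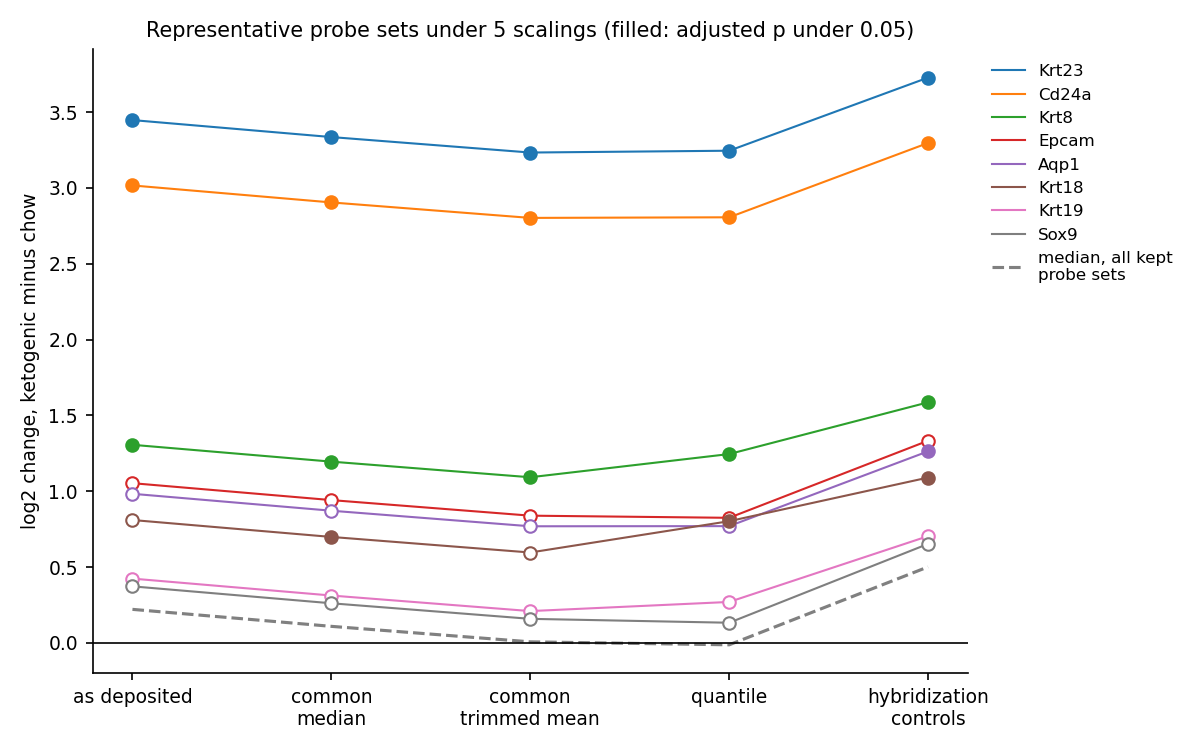
Log2 change, ketogenic minus chow, of the brightest probe set of each of the 8 genes with a kept one, with the values as deposited and under 4 other scalings; filled points have an adjusted p under 0.05 and the dashed line is the median of all kept probe sets. Krt23, Cd24a and Krt8 are filled throughout, Krt18 under 3 of the 5 and Aqp1 under 1.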

How the data were processed

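The authors deposited 1 linear signal intensity per probe set and array, with GCOS and MAS5 named in the submitters' processing notes, from RNA labelled by the one-cycle biotin protocol per the labels. The sources used here give no version, setting or scaling target. The members and lists were chosen with earlier results of these data known.

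Groups came from the sample titles, and replicates were numbered in order of deposition. The platform annotation gave 1 symbol for 34958 of 45101 probe sets, several for 932 and no entry for 9211, and all 9 members matched the RefSeq table of GRCm38.p6. Signals were raised to 1.1, the 10th percentile of the table, and log2-transformed. The 64 control probe sets and probe sets with a mean log2 signal under the median of 3.35 were left out. The diets were tested in R 4.3.3 by limma 3.58.1, with lmFit followed by eBayes (two-sided, Benjamini-Hochberg, threshold 0.05, 4 residual and 4.68 prior degrees of freedom). Each gene is represented by the probe set whose mean log2 signal is highest. The background of an array was the 95th percentile of its 27 bacterial control probe sets. Where every array of 1 diet was at or under it, those signals were raised to it and the fold is a lower bound, which allows for no spread between arrays. The fit was checked on simulated data.

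All members were named, and from each list up to 3 called genes with the largest change, or the brightest kept gene. Symbols of the lists that the annotation does not hold alone were not used here. Lists got no set test, and cell types no p of their own. Alternatives changed the scaling, the floor, the filter, the unit of the fit and the prior, or left out 1 array. Precision is limited by the number of arrays.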

Additional observations from a re-analysis of the deposited data

How the results depend on the processing

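The count of 5 member probe sets called higher was 9 with hybridization-control scaling, 10 with log2(signal + 16), 8 with a trended robust prior, 3 with the mean of the probe sets of a gene, 1 without a filter on low signal and 1 when multi-transcript probe sets were left out. When 1 array was left out it lay between 1 and 6. For the 7 related lists together, 11 genes were called higher, and 24, 22, 21, 18, 2 and 6 under the same alternatives in the same order, with 4 to 13 when 1 array was left out. Counts of falls were 0 under every alternative run, for the members and for these lists. With a common array median, a common trimmed mean, quantile normalization, no floor (zeros at the smallest positive signal), a filter at the background and 1 probe set per gene, the counts were within 1.5 times the reported ones. Leaving out the multi-transcript probe sets removed all 3 of Krt8 and the bright one of Cd24a, and left 7 member probe sets to test. The mean over the probe sets of a gene left 8 units. Otherwise the cause was not tested. Over all kept probe sets 918 were higher and 127 lower, or 87.8% higher, against 77.4% for a common median, 65.9% for a trimmed mean, 64.5% after quantile normalization and 96.3% for the hybridization controls (1068 and 312, 780 and 403, 646 and 355, and 3214 and 124). Without a filter 140 were higher and 38 lower, and without ketogenic arrays 1, 2 and 3 in turn 363, 331 and 272 were higher. Among single member probe sets, no value changed sign under the alternatives run. No paired analysis was possible because the replicate numbers follow only the order of deposition and the labels pair no samples. Signals near the background of 10.7 limit what can be said of Krt7, Krt19 and Epcam, and of the size of the changes of Krt23 and Cd24a.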
